A study of Homo sapiens with 16 samples.

Results

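The HOX genes encode homeodomain transcription factors that lie side by side in the HOXA, HOXB, HOXC and HOXD clusters. The members described here are 38 listed genes of these clusters, taken by symbol, out of 20033 protein-coding genes of GENCODE release 44. They comprise 10 genes of HOXA on chromosome 7, 10 of HOXB on chromosome 17, 9 of HOXC on chromosome 12 and 9 of HOXD on chromosome 2. For each gene, regions bearing H3K4me3 or H3K27me3 within 3 kb of a start site were taken from peak lists made by CUT&RUN, in which a nuclease tethered to an antibody releases the DNA beside the bound histone mark.

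The libraries came from MCF-10A, a nontransformed human breast epithelial cell line that is a single established line and not a donor series. Cells were seeded as biological replicates and exposed for 24 h to PBS (vehicle) or to 5 mM octanoic acid (OA), a medium-chain fatty acid, with 3 libraries per exposure for each of the 2 marks. Untreated cells gave 2 H3K4me3 libraries and 2 IgG libraries, the latter measuring the background without a histone antibody. The comparison asks where exposure to OA alters the histone methylation of these cells.

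Within a cluster, the order of the genes along the chromosome matches the order of their domains along the body axis, with anterior paralogues at the 3′ end and posterior paralogues at the 5′ end. H3K4me3 marks start sites of genes that are transcribed or poised, and H3K27me3 is the mark of Polycomb repression, which was first described at homeotic genes. In mammary epithelium, HOX proteins act with the TALE cofactors of the PBX, MEIS and PKNOX families and take part in gland growth and differentiation.

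Sequences are shown for HOXA9, a start site with H3K4me3 within 3 kb in every vehicle and OA library and in neither untreated library. HOXD13 is a start site with H3K27me3 nearby in every H3K27me3 library. The others are a start site with neither mark (HOXD1) and a window called with H3K4me3 in OA libraries alone (HOXD12). The H3K4me3 region at the HOXA9 start holds 24 bp upstream of it, and the rest lies in the gene. The promoters of HOXA9 (chr7:27165488-27165787, minus strand), HOXD13 (chr2:176092471-176092770, plus strand) and HOXD1 (chr2:176188418-176188717, plus strand) are RefSeq sequences of 250 bases before and 50 after the start on GRCh38. The HOXD12 window (chr2:176097485-176097684, plus strand, hg38) is centred on the middle one of the 3 OA summits. Capitals mark CG dinucleotides, of which the sequences hold 22, 24, 36 and 17 in that order.
HOXA9 promoter: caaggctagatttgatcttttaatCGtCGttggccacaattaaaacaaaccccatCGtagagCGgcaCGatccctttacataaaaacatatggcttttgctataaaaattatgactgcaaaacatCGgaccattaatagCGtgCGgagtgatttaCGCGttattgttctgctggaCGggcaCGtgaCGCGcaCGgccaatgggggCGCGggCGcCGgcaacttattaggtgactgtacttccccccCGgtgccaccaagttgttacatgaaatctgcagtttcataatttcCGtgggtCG
HOXD13 promoter: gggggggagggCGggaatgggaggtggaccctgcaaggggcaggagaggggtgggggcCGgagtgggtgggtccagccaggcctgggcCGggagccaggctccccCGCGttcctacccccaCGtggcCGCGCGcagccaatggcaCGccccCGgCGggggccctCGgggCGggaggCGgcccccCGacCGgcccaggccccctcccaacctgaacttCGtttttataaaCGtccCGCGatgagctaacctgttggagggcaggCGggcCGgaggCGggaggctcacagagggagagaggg
HOXD1 promoter: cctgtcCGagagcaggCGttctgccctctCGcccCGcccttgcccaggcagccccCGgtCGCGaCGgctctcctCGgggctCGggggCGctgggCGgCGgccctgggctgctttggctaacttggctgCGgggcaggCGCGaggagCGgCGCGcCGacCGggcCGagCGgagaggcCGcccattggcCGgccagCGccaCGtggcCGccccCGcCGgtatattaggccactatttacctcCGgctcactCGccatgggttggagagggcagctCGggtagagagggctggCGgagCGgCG
HOXD12 upstream window: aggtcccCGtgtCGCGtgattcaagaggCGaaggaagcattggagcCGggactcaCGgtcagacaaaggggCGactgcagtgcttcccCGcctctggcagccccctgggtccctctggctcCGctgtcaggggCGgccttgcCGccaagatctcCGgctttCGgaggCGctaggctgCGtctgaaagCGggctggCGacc

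The lists differed in size between libraries. H3K4me3 lists held 16086 to 19953 peaks in vehicle and 17975 to 21033 in OA, and H3K27me3 lists held 18801 to 47648 in vehicle and 9091 to 32363 in OA. OA replicate 3 had the fewest H3K27me3 peaks. Read totals were not used here. For narrow peaks, the lowest local background recovered from fold and p-value served as a relative measure of depth: it was 0.82, 0.775 and 0.45 reads in vehicle and 0.855, 0.635 and 0.72 in OA for H3K4me3, so vehicle replicate 3 was the shallowest by this measure. The line's epithelial and basal identity was visible in H3K4me3, which was called in all 6 libraries at KRT5, KRT17, ITGA6 and EGFR and in at least 2 at the other 4 of 8 epithelial and basal markers, and at 0 of 8 markers of other cell types. Of the epithelial markers, KRT14 was called in 2 vehicle libraries and no OA library. The 2 IgG libraries, with 1131 and 1280 peaks, covered 0 kb of every HOX cluster.

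H3K4me3 occupied the HOXA and HOXC genes, was sparse in HOXB and almost absent from HOXD. A gene was counted as called in a library when that library had a peak inside a merged region, kept where at least 2 of the 6 libraries overlapped, within 3 kb of any annotated start site. By this count 15 of the 38 genes had H3K4me3 in all 6 vehicle and OA libraries, 6 had it in some and 17 in none. The 15 were HOXA3, HOXA4, HOXA5, HOXA6, HOXA9 and HOXA10, then HOXB2 and HOXB3, and HOXC4, HOXC5, HOXC6, HOXC8, HOXC9, HOXC11 and HOXC13. This was 39.5% of the HOX genes, while 56.5% of all protein-coding genes were called in all 6 libraries.

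H3K27me3 was seen at fewer HOX genes and mostly in the HOXB cluster and at posterior genes. It was called in all 6 libraries at HOXD13 alone, in 1 to 5 libraries at 10 genes and in none at 27. At least 1 call was present at 28.9% of the HOX genes and at 13.8% of all protein-coding genes. With 2 libraries as the minimum, 17 genes bore H3K4me3 alone, 7 bore H3K27me3 alone, 4 bore both and 10 neither. Every kept region has peaks of at least 2 libraries, so any call meets this minimum. H3K4me3 was called in at least 1 library at 55.3% of the HOX genes and 66.8% of all protein-coding genes. The shares of all genes with both marks or with neither were not computed. In HOXA 9 of 10 genes bore H3K4me3 alone, in HOXC 7 of 9, in HOXD 1 of 9 and in HOXB 0 of 10. All 4 genes with both marks were in HOXB, and 6 of the 10 genes with neither were in HOXD.

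**Figure D1:**
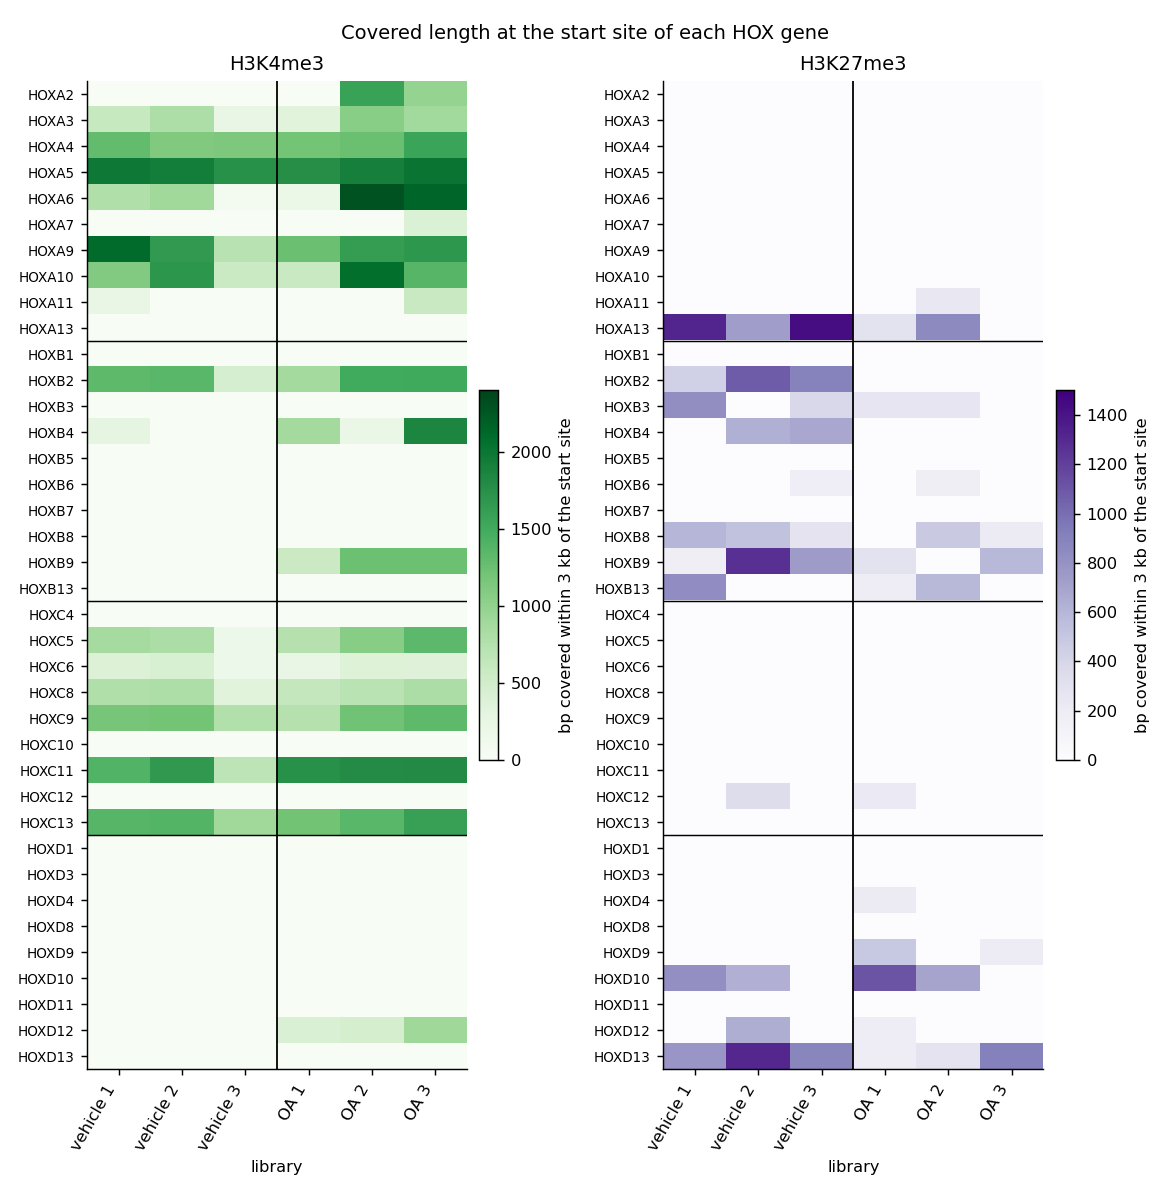
Heat map of the bases inside called peaks within 3 kb of the canonical start site, for each of the 38 HOX genes (rows, grouped by cluster) in each vehicle and OA library (columns), with H3K4me3 in green on the left and H3K27me3 in purple on the right. H3K4me3 fills rows of HOXA and HOXC, H3K27me3 lies at HOXA13, in HOXB and at HOXD10 and HOXD13, and HOXB9 and HOXD12 have H3K4me3 in the 3 OA columns only.

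Of the HOXA genes, HOXA5, a regulator of epithelial identity and lung development, had the most even H3K4me3. Its region, chr7:27141691-27143725, spans the start site, and the bases covered within 3 kb of that site numbered 1969, 1925 and 1737 in the vehicle libraries and 1770, 1910 and 2014 in the OA libraries. The groups overlapped, and the difference of 21 bp was smaller than the SD of 123 and 122 bp (n = 3 each, two-sided exact permutation test, p = 0.8). HOXA4, a neighbouring central gene, had 1299, 1116 and 1130 bp in vehicle and 1196, 1250 and 1565 bp in OA, also overlapping. HOXA9, a driver of haematopoietic progenitor growth, had 2105, 1653 and 718 bp in vehicle and 1250, 1622 and 1681 bp in OA. HOXA10, which patterns the uterus and hindlimb, had 1104, 1688 and 573 bp in vehicle and 584, 2078 and 1374 bp in OA. At both genes the lowest value was that of vehicle replicate 3, the shallowest H3K4me3 library by the background measure (0.45 reads). OA replicate 1 was the deepest vehicle or OA library by that measure (0.855 reads), yet had the lowest OA value at both genes. Whether depth set these lengths was not tested, and the groups were not separated.

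The remaining HOXA genes were less uniformly marked. HOXA6 had 771, 898 and 74 bp in vehicle and 203, 2292 and 2150 bp in OA. HOXA3, which patterns pharyngeal organs such as the thymus, had 591, 796 and 233 bp in vehicle and 340, 1053 and 882 bp in OA around its canonical start, and further regions at its alternative starts. At HOXA6 and HOXA3 the 2 highest values came from OA replicates 2 and 3, and OA replicate 1 fell among the vehicle values. HOXA2, a hindbrain and branchial arch patterning gene, had 0 bp in the 3 vehicle libraries and 0, 1576 and 976 bp in OA. HOXA7 had calls in OA replicates 1 and 3 and none in vehicle, through a region of 504 bp that lies 2938 bp from one of its starts and that was also called over 272 bp in an untreated library. HOXA11, a limb and uterine gene, had a call in vehicle replicate 1 and in OA replicate 3, with 231 and 589 bp.

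HOXA13, the most posterior gene of the cluster and a limb and genital tract regulator, was the exception in HOXA. It had no H3K4me3 in any library. H3K27me3 covered 1322, 731 and 1435 bp of its start-site window in vehicle and 295, 851 and 0 bp in OA. The region, chr7:27197716-27199545, begins 546 bp inside the gene and holds 1117 bp of exon and 713 bp of intron. The vehicle mean of 1163 ± 378 bp and the OA mean of 382 ± 432 bp (SD, n = 3) differed with p = 0.2 by the two-sided exact permutation test, and the ranges overlapped.

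In HOXC the same 7 genes were called with H3K4me3 in every vehicle and OA library. HOXC13, a regulator of hair and nail keratin genes, had 1376, 1384 and 892 bp in vehicle and 1209, 1350 and 1597 bp in OA, and it was the member with the highest coverage in untreated replicate 2, at 1149 bp. HOXC9 had 1180, 1195 and 760 bp in vehicle and 737, 1227 and 1328 bp in OA, and HOXC8, a thoracic patterning gene, had 778, 791 and 334 bp against 623, 705 and 813 bp. HOXC5 and HOXC6 had 169 to 861 bp and 173 to 423 bp in vehicle, and 733 to 1332 bp and 231 to 370 bp in OA. None of these 5 genes separated the groups. HOXC4 had 0 bp around its canonical start in all 6 libraries and was called through a region of 2365 bp over an upstream alternative start (chr12:54016730-54019094), which is also within 3 kb of a start of HOXC6.

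HOXC11, a posterior gene expressed in hindlimb and genital regions, had H3K4me3 over 1404, 1662 and 675 bp in vehicle and 1742, 1796 and 1804 bp in OA. Every OA value was above every vehicle value, with means of 1247 ± 512 bp and 1781 ± 33.7 bp (SD, n = 3), and this separation is why the gene is singled out, so it carries no test. Without vehicle replicate 3 the difference of 534 bp became 248 bp. Within 1 kb of the start it was 164 bp, and both there and as a share of each library's covered bases the groups overlapped. The peaks held 46, 44 and 10 recovered reads in vehicle and 32, 114 and 102 in OA at their highest point, with OA replicate 1 below vehicle replicates 1 and 2. HOXC12 had H3K27me3 in vehicle replicate 2 and OA replicate 1 (344 and 222 bp) and no H3K4me3. HOXC10 had no shared call of either mark, and a single H3K4me3 peak of 228 bp in OA replicate 3 (chr12:53989321-53989548, fold enrichment 5.05) lay inside the gene.

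HOXB held the genes with both marks. HOXB2, a hindbrain gene, had H3K4me3 in all 6 libraries over chr17:48543070-48544591, with 1327, 1351 and 457 bp in vehicle and 863, 1498 and 1500 bp in OA, overlapping between groups. H3K27me3 at the same gene covered 437, 1077 and 898 bp in vehicle and 0 bp in each OA library. The H3K27me3 region, chr17:48543019-48544129, has 729 bp of exon and 382 bp of intron of HOXB2 and shares most of its bases with the H3K4me3 region. The 3 vehicle peaks had fold enrichments of 3.65, 3.80 and 3.62 over local background. The mean difference was -804 bp, which is a description, since HOXB2 was chosen for this pattern. When each H3K27me3 list was reduced to its 9091 strongest peaks the difference became -146 bp, within 1 kb of the start it was -7 bp, and with a q-value limit of 1e-05 no coverage was left in either group.

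HOXB3 and HOXB4 also bore both marks. HOXB4, known for expanding haematopoietic stem cells, had a merged H3K4me3 region over its start site (chr17:48576972-48578819). Peaks in it came from vehicle replicate 1 alone among vehicle libraries, at 278 bp, and from all OA libraries, at 863, 208 and 1848 bp. Since OA replicate 2 was below vehicle replicate 1 the groups overlapped (p = 0.2, two-sided exact permutation test), and the highest points of the peaks held 14 recovered reads in vehicle replicate 1 and 17, 10 and 38 in OA. H3K27me3 at HOXB4 was called in vehicle replicates 2 and 3 (633 and 678 bp) and in no OA library. This H3K27me3 region (chr17:48578719-48579739) and the H3K4me3 region of HOXB4 also lie within 3 kb of a start of HOXB3. The 2 genes are thus not independent for either mark. HOXB3 had 2 further, intronic H3K4me3 regions near alternative starts, 1 called in all 6 libraries (chr17:48585112-48586071) and 1 in 5 (chr17:48554535-48555906). H3K27me3 around its canonical start covered 826, 0 and 386 bp in vehicle and 261, 263 and 0 bp in OA.

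HOXB9, a posterior gene whose paralogue group is needed for mammary gland development, had H3K4me3 in the OA libraries only. Bases covered within 3 kb of its start were 0, 0 and 0 in vehicle, 0 in both untreated libraries and 557, 1240 and 1242 in OA. The OA mean was 1013 ± 395 bp (SD, n = 3), and no test is given because the gene is described for this pattern. The merged region, chr17:48625064-48626596, lies across the start site and comprises 238 bp of upstream sequence, 606 bp of exon and 689 bp of intron. The OA peaks had fold enrichments of 5.09, 11.6 and 11.1, and their highest points held 13, 52 and 69 recovered reads. Ranked by p-value within their own lists, they stood at percentiles 15.004, 51.4 and 62.9, so the peak of OA replicate 1 was a weak one and the others were of middling strength. H3K27me3 lay on either side of the H3K4me3 region without sharing bases with it. A region inside the 3′ portion of the gene was called in 4 libraries (chr17:48622341-48623684) and one upstream of the gene in 3 (chr17:48628087-48629652). H3K27me3 covered 168, 1272 and 744 bp in vehicle and 290, 0 and 585 bp in OA within 3 kb of the start, overlapping between groups.

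**Figure D2:**
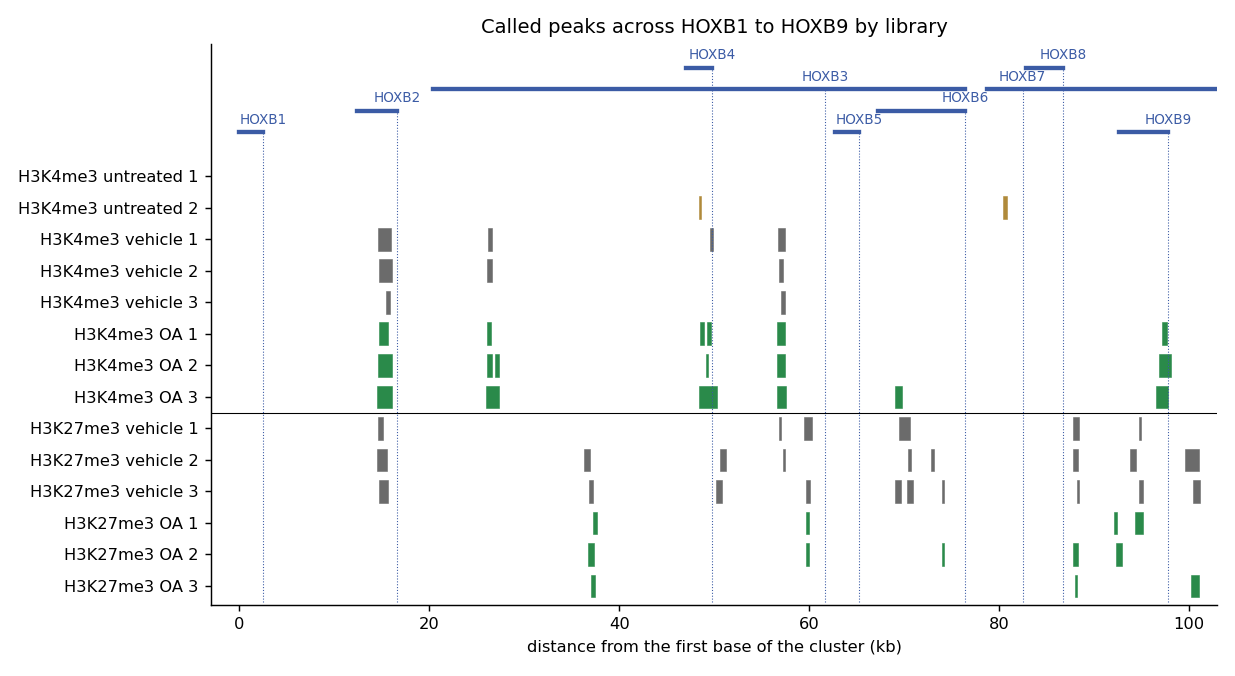
Peaks called in each H3K4me3 and H3K27me3 library (rows; untreated ochre, vehicle grey, OA green) along the HOXB cluster from HOXB1 to HOXB9, with distance in kb on the horizontal axis, genes as blue bars and canonical start sites as dotted lines. At HOXB9 the 3 OA rows of H3K4me3 have a peak and the vehicle rows have none, and at HOXB2 the 3 vehicle rows of H3K27me3 have a peak and the OA rows have none.

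The other HOXB genes had no H3K4me3 call in any vehicle or OA library. HOXB6 had H3K27me3 in all 3 vehicle libraries over chr17:48597570-48599484, with 1190, 312 and 1263 bp in peaks and fold enrichments of 3.24, 3.66 and 3.00. No OA library had an H3K27me3 peak there. The gene was still called with H3K27me3 in OA replicate 2 through a separate intronic region of 199 bp (chr17:48602505-48602703). A single H3K4me3 peak of 706 bp in OA replicate 3 (chr17:48597552-48598257, fold enrichment 8.40) shared bases with the vehicle-only H3K27me3 region. It is no call, as no other library shared it. HOXB8 had H3K27me3 upstream of its start over 598, 531 and 287 bp in vehicle and 0, 475 and 214 bp in OA. HOXB13, a regulator of prostate and hindgut epithelium that lies far from the rest of the cluster, had 831, 0 and 0 bp in vehicle and 191, 582 and 0 bp in OA, of which vehicle replicate 1 and OA replicate 2 counted as calls. HOXB8 and HOXB13 both overlapped between groups. HOXB1, HOXB5 and HOXB7 had no call of either mark.

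HOXD was the cluster with least H3K4me3. HOXD12, a limb patterning gene, was its only member with a call, in the 3 OA libraries. The region, chr2:176097317-176097909, is intergenic and ends 1886 bp upstream of the start site, and the HOXD12 window printed above is the 200 bp around its middle summit, chr2:176097485-176097684. Peaks were 406, 460 and 593 bp long in OA and absent from vehicle and untreated libraries, and within 3 kb of the start OA replicate 3 had a further peak, for 900 bp in all. Mean coverage was 589 ± 271 bp in OA and 0 in vehicle (SD, n = 3), given as a description like that of HOXB9. Fold enrichments were 7.34, 6.47 and 14.2, recovered reads at the highest point were 17, 13 and 55, and the ranks by p-value within the lists were at percentiles 35.4, 16.01 and 61.0. The peak of OA replicate 3 was thus the strongest at HOXD12. HOXD12 also had H3K27me3 peaks of 649 bp in vehicle replicate 2 and 188 bp in OA replicate 1, which did not meet in a shared region. The peak of vehicle replicate 2 (chr2:176097551-176098199) shared bases with the OA-only H3K4me3 region, and that of OA replicate 1 did not.

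HOXD13, the digit-patterning gene at the 5′ end of the cluster, had H3K27me3 in every library, over 777, 1308 and 877 bp in vehicle and 191, 276 and 904 bp in OA. The groups overlapped (p = 0.3, two-sided exact permutation test). The calls came from 3 separate regions, 2 upstream of the gene and 1 in its exons, and none of these was called in all 6 libraries. HOXD10, a limb and hindlimb motor neuron gene, had 819, 630 and 0 bp in vehicle and 1109, 703 and 0 bp in OA, so replicate 3 of both groups had none. HOXD9 had 488 and 203 bp in OA replicates 1 and 3, and HOXD4 had 206 bp in OA replicate 1, as single-library peaks that did not form a shared region. HOXD1, HOXD3, HOXD8 and HOXD11 had 0 bp of both marks within 3 kb of their canonical starts.

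**Figure D3:**
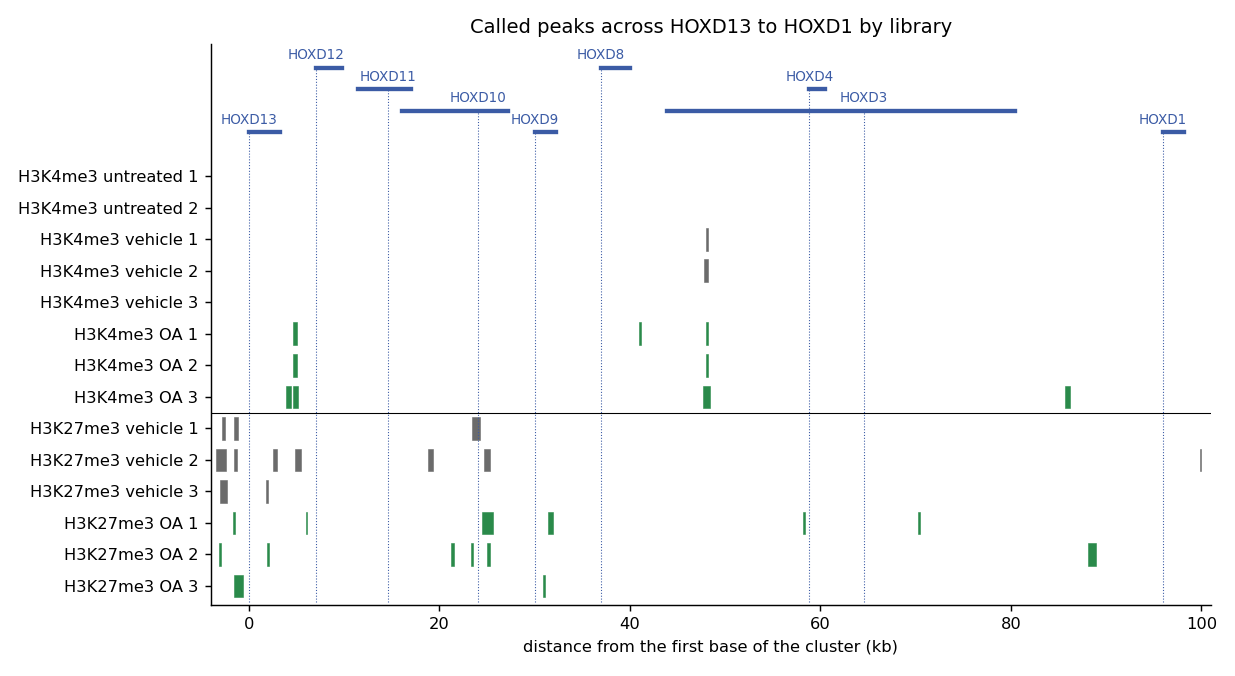
Peaks called in each H3K4me3 and H3K27me3 library (rows; vehicle grey, OA green) along the HOXD cluster from HOXD13 to HOXD1, with distance in kb on the horizontal axis, genes as blue bars and canonical start sites as dotted lines. H3K4me3 peaks upstream of HOXD12 are in the 3 OA rows only, and H3K27me3 peaks lie mainly around HOXD13 and HOXD10.

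Regions called in every library of one exposure and in none of the other were 2 per mark near the HOX genes, a larger share than among all regions. Among 28 merged H3K4me3 regions near the HOX genes, 17 were called in all 6 libraries (60.7%, against 59.1% of all regions), 2 in the 3 OA libraries and no vehicle library (7.14%, against 1.84% of all 18734 regions), and 0 in the 3 vehicle libraries alone (0.0801% of all regions). The 2 OA-only regions are those of HOXB9 and HOXD12, and the count was 2 or 3 when a library was left out (3 without vehicle replicate 1, OA replicate 1 or OA replicate 2). Among 16 H3K27me3 regions, 2 were called in the 3 vehicle libraries and no OA library (12.5%, against 2.55% of all 32643 regions), those of HOXB2 and HOXB6, and 0 in OA alone (0.245% of all regions). H3K4me3 was called in more OA than vehicle libraries at 7 regions (25%, against 23.8% of all regions) and in fewer at 1 (3.57%, against 6.73%). H3K27me3 was called in fewer OA than vehicle libraries at 8 regions (50%, against 45.7% of all regions) and in more at 1 (6.25%, against 13.3%). These directional shares were near the background. None of the 16 H3K27me3 regions was called in all 6 libraries (0%, against 4.06% of all regions). They spanned 1006 bp at the median and 1915 bp at most, where 774 bp was the median over all H3K27me3 regions.

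Counted by gene, HOXB9 and HOXD12 made 2 of the 21 HOX genes with an H3K4me3 call (9.52%) called in all 3 OA and no vehicle library, against 1.29% of all genes with a call. No HOX gene had H3K4me3 in the 3 vehicle libraries and no OA library, nor did any other gene (0%). For H3K27me3, HOXB2 was 1 of 11 HOX genes (9.09%) called in all vehicle and no OA libraries, against 2.39% of genes, and 0 had the opposite pattern, against 0.181%. These shares rest on 1 or 2 HOX genes each.

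Covered length at the canonical start gave a share closer to the background. Of 19 HOX genes with any H3K4me3 there, 3 (HOXB9, HOXC11 and HOXD12) had every OA value above every vehicle value, which was 15.8%, against 8.82% of 13502 genes with coverage, and 0 had the reverse, against 0.304%. The mean was higher in OA at 18 of the 19 (94.7%, against 76.3% of all genes with coverage), with a median difference of 218 bp, against 123 bp over all genes with coverage. The count of 3 was not stable to single libraries: it was 5 without vehicle replicate 1 and 9 without OA replicate 1. For H3K27me3, HOXB2 was 1 of 15 HOX genes with coverage (6.67%) with every OA value below every vehicle value, against 6.08% of 3934 genes, and 0 had the reverse, against 0.381%. The mean was lower in OA at 11 of the 15 (73.3%, against 60.6% of all genes with coverage), with a median difference of -154 bp, against -63.8 bp over all genes with coverage.

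The number of HOX genes called moved in the same direction as the number of all genes called. H3K4me3 was called at 17, 15 and 15 HOX genes in vehicle and at 19, 19 and 21 in OA (15.7 ± 1.15 and 19.7 ± 1.15, SD, n = 3), with no overlap. The difference of 4 genes became 2.33 with equal numbers of peaks, 2.67 within 1 kb, 2.67 without OA replicate 3 and 6.67 where a peak had to cover 50% of the region. Over all protein-coding genes it was called at 12790, 12449 and 11441 in vehicle and 12832, 13108 and 13344 in OA, also with no overlap. By cluster the counts were 7, 6 and 6 against 7, 7 and 9 in HOXA, 3, 2 and 2 against 4 in each OA library in HOXB, 7 in every library in HOXC, and 0 against 1 in each library in HOXD. By position, posterior genes (paralogues 9 to 13) were called at 6, 5 and 5 of 16 in vehicle and 7, 7 and 8 in OA, central genes (4 to 8) at 8, 7 and 7 of 15 and 9, 8 and 9, and anterior genes (1 to 3) at 3 of 7 in each vehicle library and 3, 4 and 4 in OA.

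H3K27me3 was called at 9, 10 and 8 HOX genes in vehicle and at 6, 7 and 3 in OA (9 ± 1 and 5.33 ± 2.08, SD, n = 3). The lowest of these was OA replicate 3, the library with fewest peaks, in which H3K27me3 was called at 805 genes in all, against 1667, 2285 and 1992 in vehicle and 1922 and 1730 in the other OA libraries. Most of the lower count lay in HOXB, with 6 called in each vehicle library and 2, 4 and 2 in OA, while HOXD had 2, 2 and 1 in both groups. The difference of -3.67 genes was -3.33 when every list was cut to its 9091 strongest peaks and -2.50 without OA replicate 3. It was -1.67 with regions of any library or with peaks within 5 kb joined, and 0 at a q-value of at most 1e-05. In bulk libraries of this kind, fewer cells with a mark and less of the mark per cell cannot be told apart.

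**Figure D4:**
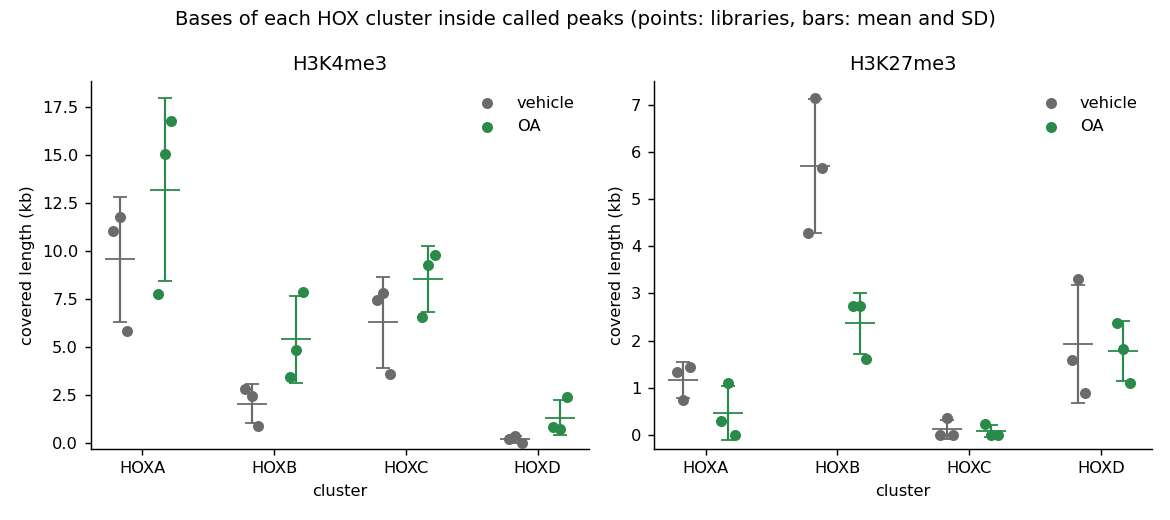
Covered length in kb (vertical axis) of each HOX cluster with 3 kb on either side, for H3K4me3 (left) and H3K27me3 (right), with a point per library and the mean and SD of 3 libraries as bars, vehicle in grey and OA in green. For H3K4me3 the OA points are all above the vehicle points in HOXB and HOXD, and for H3K27me3 they are all below in HOXB.

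Over whole clusters, H3K4me3 covered 2.79, 2.45 and 0.887 kb of HOXB in vehicle and 3.45, 4.86 and 7.87 kb in OA. The difference of 3.35 kb had p = 0.1 by the two-sided exact permutation test (n = 3 each) and an adjusted p of 0.267 over the 8 cluster and mark combinations by the Benjamini-Hochberg method, and it was 2.11 kb without OA replicate 3. In HOXD, H3K4me3 covered 0.229, 0.371 and 0 kb in vehicle and 0.845, 0.734 and 2.39 kb in OA, a difference of 1.12 kb with the same exact p and adjusted p, which was 0.590 kb without OA replicate 3. The vehicle part of it lay more than 3 kb from any start site of the HOXD genes. HOXA had 11.1, 11.8 and 5.81 kb in vehicle and 7.78, 15.02 and 16.7 kb in OA, and HOXC had 7.45, 7.82 and 3.57 kb and 6.55, 9.27 and 9.78 kb. In HOXA and HOXC the groups overlapped (p = 0.4 and p = 0.3 by the exact permutation test). The HOXA difference of 3.63 kb was 1.76 kb without vehicle replicate 3 and 1.85 kb without OA replicate 3, and without OA replicate 1 it was 6.33 kb with the groups apart (exact permutation p = 0.1). The HOXC difference of 2.25 kb was 0.895 kb without vehicle replicate 3. As a share of each library's covered bases the HOXC groups did not overlap (exact permutation p = 0.1) and the HOXA groups did (exact permutation p = 0.4). The untreated libraries covered 3.08 and 2.50 kb of HOXA, 0 and 0.608 kb of HOXB, 2.24 and 2.10 kb of HOXC and 0 kb of HOXD.

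H3K27me3 covered 4.29, 7.15 and 5.67 kb of HOXB in vehicle and 2.73, 2.74 and 1.62 kb in OA. The groups did not overlap, and the difference of -3.34 kb had p = 0.1 (two-sided exact permutation test, adjusted p = 0.267, n = 3 each). As a percentage of all bases each library covered, the HOXB groups overlapped (p = 0.4 by the exact permutation test). The difference was -2.07 kb with equal numbers of peaks, -6.24 kb with peaks within 5 kb joined (exact permutation p = 0.2), and 0 kb at a q-value of at most 1e-05. In HOXD the lengths were 1.60, 3.31 and 0.877 kb in vehicle and 2.38, 1.83 and 1.11 kb in OA (exact permutation p = 1). HOXA had 1.32, 0.731 and 1.44 kb in vehicle and 0.295, 1.09 and 0 kb in OA (exact permutation p = 0.2), and HOXC had at most 0.344 kb in any library.

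All 4 clusters together were denser in both marks than the whole genome, a comparison not matched for gene density. The covered percentage of the clusters was 5.69 to 9.94 times that of all autosomes and sex chromosomes for H3K4me3, with a mean log2 ratio of 2.95 ± 0.30 (SD, n = 6 libraries, higher in 6 of 6, two-sided exact sign-flip permutation test, p = 0.031, the smallest possible). For H3K27me3 it was 2.14 to 4.46 times, with a mean log2 ratio of 1.67 ± 0.43 (n = 6, higher in 6 of 6, p = 0.031 by the same exact permutation test). Since gene density was not matched, this test cannot tell a trait of the HOX genes from close spacing of start sites. Counted by gene, H3K4me3 was called in all 6 libraries at 39.5% of the HOX genes and 56.5% of all protein-coding genes. For H3K27me3 the shares called in all 6 libraries were 2.63% and 2.04%. The density differed by cluster. H3K4me3 ratios were 15.9 to 24.4 in HOXA and 0 to 0.644 in the vehicle libraries of HOXD, where those of OA were 1.21 to 3.35.

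**Figure D5:**
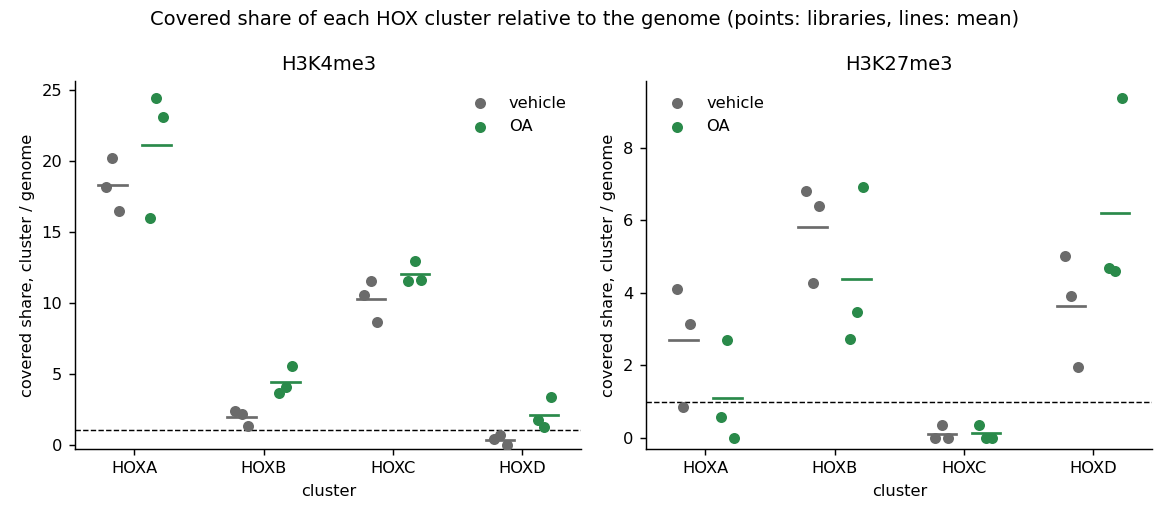
Ratio of the covered percentage of each HOX cluster to that of the genome (vertical axis) for H3K4me3 (left) and H3K27me3 (right), with a point per library and a line at the mean of 3 libraries, vehicle in grey and OA in green; the dashed line marks equal density. H3K4me3 is densest in HOXA and HOXC and lies below the genome in HOXD of the 3 vehicle libraries, and H3K27me3 is near 0 in HOXC.

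Among the partners of HOX proteins, genes of the TALE cofactors were examined. PBX3, MEIS1, MEIS2 and PKNOX1, which encode DNA-binding partners, had H3K4me3 in all 6 libraries and no H3K27me3, PBX2 had H3K4me3 in 5, and PBX4 had neither mark. MEIS3 and PKNOX2 had H3K4me3 in the 3 OA libraries and no vehicle library, and H3K27me3 in 5 and 6 libraries. Of the 6 ParaHox genes, an ancient sister group of the HOX genes, CDX1 and CDX2 had H3K27me3 in all 6 libraries. PDX1 had H3K4me3 in 1 vehicle and 3 OA libraries, and H3K27me3 in 1 vehicle and 2 OA libraries.

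Of 18 noncoding and neighbouring transcripts inside the clusters, 8 had H3K4me3 in all 6 libraries, among them HOTAIR of HOXC and HOTAIRM1 of HOXA. HOXB-AS4, which lies beside HOXB9, had H3K4me3 in the 3 OA libraries and no vehicle library, through the region described for HOXB9. HOTTIP, which lies beside HOXA13, had H3K27me3 in 5 libraries. These transcripts share regions with the HOX genes and are no independent measurement. Of the 9 flanking genes, SKAP1 next to HOXB1 had H3K27me3 in all 6 libraries, and EVX1 and EVX2, the homeobox genes next to HOXA13 and HOXD13, had neither mark.

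In base composition the start-site windows of the HOX genes (250 bases before and 50 after the canonical start) held a median of 17.5 CG dinucleotides, with a range of 4 to 44, and all protein-coding genes held a median of 23. The median was 17 at genes with H3K4me3 alone, 15 at those with H3K27me3 alone, 12 at the 4 with both and 24.5 at the 10 with neither. HOXD1, with 36, HOXD8, with 34, and HOXD9, with 28, were among the genes rich in CG that had no shared call of either mark. The motif TGATNNAT of PBX-HOX dimers was found on either strand in 9 of 38 windows (23.7%) and in 4.76% of all windows. TGACAG of MEIS and PKNOX was found in 6 of 38 (15.8%) and 14.3% of all. The HOX windows had a median GC content of 55.3% and all windows 63.7%, and the motif shares were not adjusted for base composition.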

How the data were processed

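Peak lists of 16 CUT&RUN libraries were analysed, on hg38 per the labels. The study's methods name MACS2 2.2.7.1 for narrow H3K4me3 peaks and SICER2 for broad H3K27me3 peaks, although the H3K27me3 lists have the broadPeak layout of MACS2. The aligner and the treatment of duplicates are not given in the sources used here. The authors made a separate peak list for every library. The deposited fold enrichment is a ratio of a peak to its local background, and the deposited −log10 p-value and −log10 q-value rise with depth, and no value was scaled across libraries. Lists ended near q-values of 0.01 (narrow) and 0.1 (broad). DiffBind 3.9, which the authors used on reads, cannot be run on peak lists.

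From these lists, peaks of the 6 libraries of a mark were merged (minimum overlap 1 bp, at least 2 libraries) and assigned to start sites of GENCODE 44 within 3 kb. Covered length is the union of a library's peaks, at the canonical start or across a cluster with 3 kb on either side. Groups and replicate numbers came from the labels. Single values were compared by two-sided exact permutation tests over libraries, and cluster density by sign flips. Counts over the HOX genes carry no p-value, because the members and lists were chosen with earlier results of these data known. For the same reason shares are set beside those of all features. Genes were named where a region was OA-only or vehicle-only, where groups did not overlap, where H3K27me3 was called in most libraries, where H3K4me3 was absent or where both marks were called, beside fixed lists of cofactors, flanks, ParaHox genes and cluster transcripts; the other HOX genes were described after their values were seen. For narrow peaks, the pileup was solved from the fold and the Poisson p-value (154 of 154 peaks near the HOX genes). This step, the shares of genes and regions by call pattern, the unshared peaks and the median differences were added after the data were seen. Promoters matched the RefSeq table for 20 of 38 genes, and the composition of all windows was read from the hg38 sequence. As a check of the procedure, the vehicle peaks were removed from 200 regions called in all 6 libraries, and 200 of 200 were then found as OA-only for each mark. Only regions where the OA peaks alone formed a region were used, so recovery was built in and measures no sensitivity. Alternatives were a stricter q-value, equal numbers of peaks, 50% overlap, other distances, margins and start sites, removal of IgG regions, scaling, joined peaks, a replicate block and omission of each replicate in turn. Calculations ran in Python 3.11.15 with scipy 1.17.1 and numpy 2.4.6, and figures in matplotlib 3.10.9.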

Additional observations from a re-analysis of the deposited data

Results flagged for a closer look

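The untreated H3K4me3 libraries took no part in the comparison of vehicle with OA, and they hold signal at HOX genes while the 2 IgG libraries hold none. In untreated replicate 1, H3K4me3 covered part of the window within 3 kb of the canonical start of 4 HOX genes (HOXA4, HOXA5, HOXC9 and HOXC13). In untreated replicate 2 it covered that of 8 HOX genes, namely these 4 with HOXB4, HOXB7, HOXC8 and HOXC11. HOXB7 stood out among them: 381 bp were covered in untreated replicate 2, and 0 bp in untreated replicate 1 and in every vehicle and OA library. The other 7 also had H3K4me3 in at least 4 of the 6 vehicle and OA libraries. Counting any annotated start, untreated peaks lay in merged regions of further HOX genes. Among these were HOXA3 (both replicates), HOXC4 and HOXC6 (replicate 1) and HOXA7 (replicate 2). The untreated lists held 11242 and 12924 peaks, fewer than those of vehicle and OA.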

How the results depend on the processing

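With 3 libraries per group no exact p can be below 0.1, peak calls depend on depth, and the depth of the H3K27me3 libraries is unknown. Stricter overlap (50% of the region) or a distance of 1 kb left 1 of the 2 OA-only H3K4me3 regions, 2 to 3 were found without single replicates, and at 1 kb 1 HOX gene kept non-overlapping higher H3K4me3. Leaving out single replicates gave 3 to 9 such genes, and 0 to 1 with lower H3K4me3. The 2 vehicle-only H3K27me3 regions became 0 at q of at most 1e-05 and at 50% overlap, and 1 with equal peak numbers, with canonical starts alone or with peaks within 5 kb joined. HOX genes with lower H3K27me3 coverage in OA were 0 at q of at most 1e-05, with equal peak numbers and at 1 kb, and 1 to 3 without single replicates, where 0 to 1 were higher. Without single replicates, 2 to 3 H3K27me3 regions were vehicle-only, and the difference in HOX genes called was 2.67 to 4.33 for H3K4me3 and -4 to -2.50 for H3K27me3. The HOXD H3K27me3 difference of -0.157 kb turned to 0.0817 kb with equal peak numbers, 0.315 kb without margin and 0.00874 percentage points as a share of covered bases, and ranged from -0.683 to 0.535 kb without single replicates. The HOXC H3K27me3 difference of -0.0407 kb turned to 3.50e-05 percentage points as a share, and ranged from -0.115 to 0.074 kb. The density log2 ratio ranged from 2.87 to 3.03 for H3K4me3 and from 1.57 to 1.78 for H3K27me3 without single libraries, where p cannot go below 0.0625. With equal peak numbers it was 1.56 for H3K27me3 (exact permutation p = 0.0938). At q of at most 1e-05 a library had no H3K27me3 in the clusters and no ratio could be formed. The causes of these shifts were not tested.

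The labels do not say whether the numbers shared by vehicle and OA replicates pair the libraries. For H3K4me3, deviations of same-numbered libraries correlated at 0.0327, 0.337 and -0.123, and those of differently numbered libraries at -0.341 to 0.214. For H3K27me3, same-numbered libraries correlated at 0.0858, 0.0652 and 0.0441, each above the -0.0952 to 0.0297 of differently numbered ones. These correlations cannot settle whether the libraries are paired. With the number as a replicate block, the differences are the same by construction, 4 HOX genes more for H3K4me3 and -3.67 for H3K27me3, and the smallest exact p of 3 pairs is 0.25.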
